A study of Rattus norvegicus with 13 samples.

Results

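The fat of 7 adult female rats whose fathers had eaten standard chow was described as a baseline transcriptome, with genes ordered by their mean level and by their spread between the animals. The 7 arrays were those titled as controls, out of 13 in the series. The rats were Sprague Dawley, and each array held the fat RNA of 1 daughter. Her father had eaten control chow with 9% fat, was mated at 15 weeks of age with a female on normal chow, and the daughter was weaned at 3 weeks onto chow and sampled at 14 weeks. The other 6 arrays came from daughters raised in the same way whose fathers had eaten pellets with 43% fat; here they served to ask whether the same genes were also bright or variable in animals that the ordering had not used, and no diet groups were compared. The depot was not named beyond fat, the labels did not tie daughters to fathers or litters, and daughters are called by the numbers the labels gave them, which were 622, 627, 631, 656, 658, 662 and 664.

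White fat stores energy as triglyceride in adipocytes, which take up fatty acids, synthesise them, package them into a lipid droplet and release them by lipolysis, and which secrete hormones such as adiponectin and leptin. Adipocytes hold most of the volume of the tissue, yet much of its RNA comes from the cells around them, namely fibroblast-like progenitors, endothelium, smooth muscle of the vessels, macrophages, lymphocytes, nerves and, in depots of the abdominal cavity, a mesothelial cover. A sample of fat can therefore differ between animals in the state of its adipocytes and in the other tissue that was cut with it. In bulk samples such as these, fewer cells of a type and less RNA per cell cannot be told apart.

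Levels are log2 RMA signals, so that a difference of 1 is a doubling of signal. The signal of a probe depends on its sequence as well as on the RNA, so the order of genes by level is an order of signal and no fold between genes was taken from it. Of 14506 genes with a probe of their own, the mean level ran from 3.51 to 14.25, with a median of 8.12. A list of 22 retina and testis genes, used to show where a gene not made in fat would lie, had a median level of 6.85, and its mean per daughter ran from 6.65 to 6.92. Sry, which lies on the Y chromosome and is absent from females, lay at 6.49 ± 0.07 (SD, n = 7), between 6.41 and 6.62. Array 658 stood apart before any gene was examined: its median correlation with the other 6 over genes was 0.972, against 0.980 to 0.986 for the others. Its genes also spread less over the scale, with an SD over genes of 1.59 against 1.70 for daughter 631 and 1.76 to 1.82 for the remaining 5. For the groups that rest most on daughter 658, and for some of the genes that do, the SD without her is given as well. Over all genes, the highest of the 7 values was that of daughter 658 in 22.8%, 622 in 19.7%, 656 in 15.1%, 627 in 14.9%, 662 in 13.01%, 664 in 7.47% and 631 in 6.99%.

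Most genes differed little between daughters. The median SD over the 7 arrays was 0.156, and the middle 90% of genes lay between 0.067 and 0.397. An SD above 0.5 was found for 351 genes, which is 2.42% of those measured, and an SD above 1 for 87 genes, or 0.600%. Another 2602 genes had an SD under 0.1. The brightest 100 genes had smaller SDs than the rest, with a median of 0.0937. Of these, 16 lay above the median SD of all genes, and 0 of 100 had an SD above 0.5. The largest SD among them was that of Pmp22, a myelin and growth-arrest protein, at 0.41. All 100 lay at 12.80 or above, while the highest probe value of the control arrays was 14.37 to 14.51. Whether signals near the top of the scale differ less for that reason was not tested. The 200 genes of largest SD had a median level of 8.06, close to the median of all genes, and 4 of them were among the 1000 brightest. The spread did not simply follow the level: over 10 equal bins of genes by level, the median SD was 0.193 in the dimmest bin, 0.134 in the fourth and 0.148 in the brightest.

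**Figure D1:**
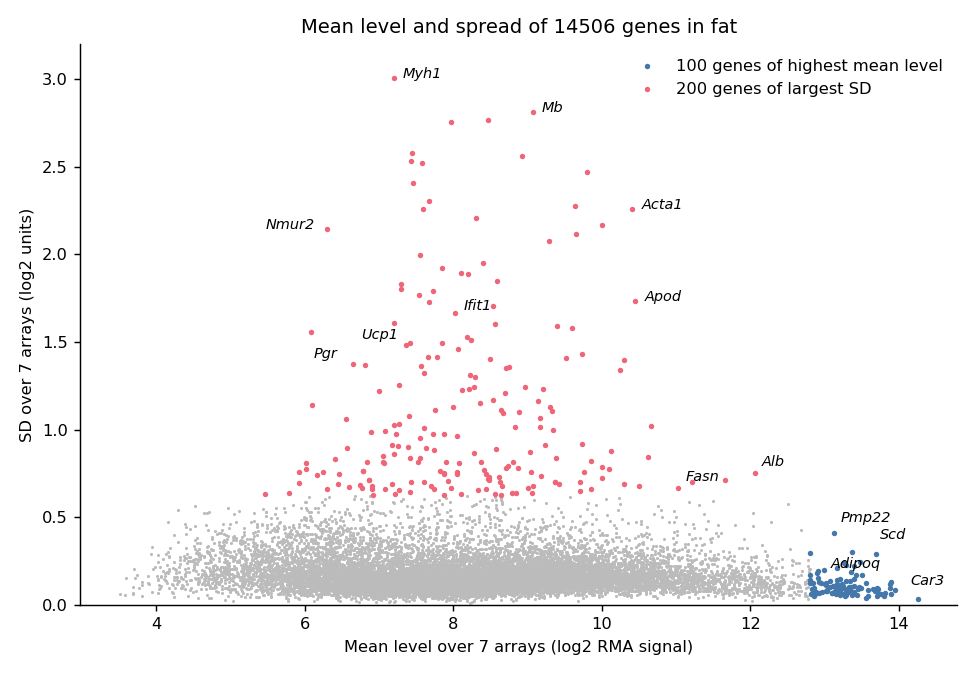
Mean level (log2 RMA signal, horizontal) against the SD over the 7 daughters (log2 units, vertical) for 14506 genes, with the 100 genes of highest mean level in blue and the 200 of largest SD in red. The blue points stay at an SD of 0.41 or less, and the red points reach 3.01 for Myh1 at levels near the middle of the scale.

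Of the brightest 100 genes, 48 were in any of the lists used, and 11 of these were on a list of adipocyte identity. Car3, carbonic anhydrase 3, a cytosolic enzyme abundant in fat, led the order at 14.25 ± 0.03 (SD, n = 7), with a lowest value of 14.20, a median of 14.26 and a highest of 14.30. Adipoq, the hormone adiponectin, stood seventh at 13.82 ± 0.07, between 13.72 in daughter 662 and 13.89 in daughters 631 and 656. Pnpla2, the adipose triglyceride lipase that begins lipolysis, lay at 13.76 ± 0.06, and Lpl, the lipoprotein lipase that frees fatty acids from circulating triglyceride, at 13.68 ± 0.08. Of the 26 measured genes of an adipocyte identity list, all 26 lay above the median level of all genes and 11 were among the brightest 100. Of the 26, 0 had an SD above 0.5, which is near the 2.42% of all genes. The median level of the list was 12.64, against 8.12 over all genes, and its median SD was 0.129, against 0.156. The mean of the list ran from 12.06 in daughter 658 to 12.21 in daughter 656.

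**Figure D2:**
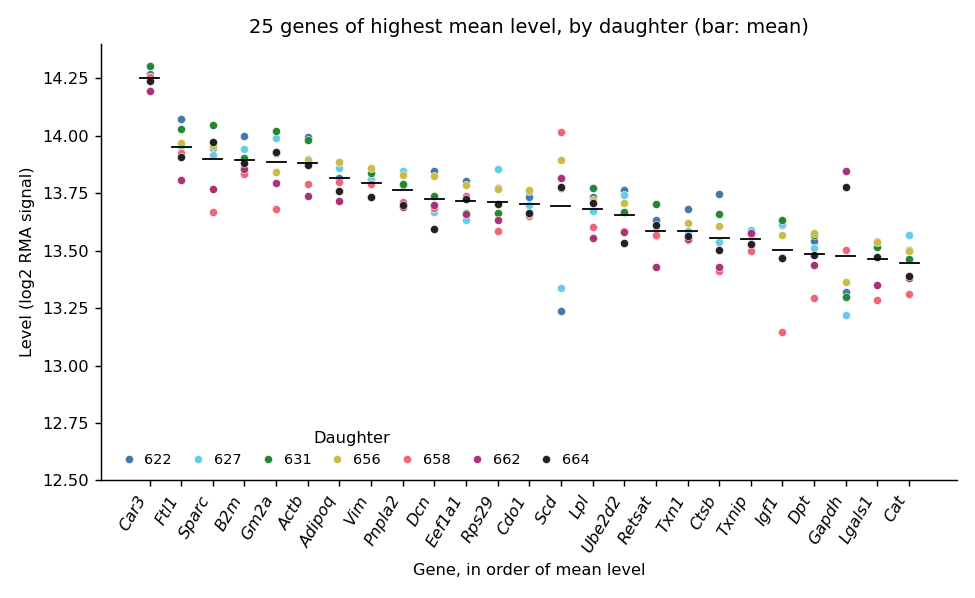
Level (log2 RMA signal) of the 25 genes of highest mean level, with 1 point per daughter and a bar at the mean. Car3 spans 14.20 to 14.30, while Scd spans 13.24 to 14.02 and Gapdh 13.22 to 13.85.

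Genes for the uptake, storage and release of fat filled the upper end of the scale together. The list of fatty acid uptake and carrier genes had all 18 measured members above the median level and 4 in the brightest 100. These 4 were Lpl, Cav1, the coat protein of caveolae, at 13.29 ± 0.14, Cd36, a fatty acid transporter, at 13.26 ± 0.06, and Fabp4, the adipocyte fatty acid binding protein, at 13.11 ± 0.11. The lipolysis and lipid droplet list had 17 of 20 members above the median level, and again 4 in the brightest 100. Among them were Aqp7, the channel through which adipocytes release glycerol, at 13.08 ± 0.14, and Cidec, which fuses lipid droplets, at 13.08 ± 0.10. Mc2r, the receptor for adrenocorticotropic hormone, which is known from the adrenal cortex and also from rodent adipocytes, ranked 50th at 13.24 ± 0.12, the only measured member of the kidney and adrenal list in the brightest 100. Pparg, the nuclear receptor that drives adipocyte differentiation, lay at 12.17 ± 0.13.

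The 4 adipocyte genes described next were named for having the largest SDs of their lists or, for Lep and Slc2a4, in any case. Lep, the hormone leptin, had a lowest value of 9.94 in daughter 662, a median of 10.62 and a highest of 11.19 in daughter 631, with a mean of 10.56 ± 0.40 (SD, n = 7). Slc2a4, the insulin-regulated glucose transporter, lay between 8.59 and 9.54, with an SD of 0.35. Retn, the hormone resistin, lay between 9.12 and 10.20, with an SD of 0.35, and Dgat2, which completes triglyceride synthesis, between 11.44 and 12.36, with an SD of 0.32.

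Lipogenesis, the synthesis of fatty acids from carbohydrate, had the largest median SD of the 7 lists of lipid and mitochondrial metabolism. All 19 measured members lay above the median level, 6 of 19 had an SD above 0.5, and the median SD was 0.291. Scd, the stearoyl-CoA desaturase, was the fourteenth brightest gene at 13.69 ± 0.29 and stood at 13.24 in daughter 622, 13.34 in daughter 627 and 13.77 to 14.02 in the other 5. Fasn, fatty acid synthase, ran from 10.14 in daughter 627 and 10.34 in daughter 656 to 11.49 in daughter 662 and 12.11 in daughter 658. Acaca, the acetyl-CoA carboxylase that supplies its substrate, ran from 10.04 in daughter 622 to 11.22 in daughter 662 and 11.76 in daughter 658. Daughters 658 and 662 thus had the highest levels of both, and the mean of the list was 11.09 and 11.03 in them against 10.47 to 10.76 in the others. By contrast Thrsp, a lipogenic protein induced by feeding and thyroid hormone, stayed between 13.10 and 13.60 at a level near the top of the scale.

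Ribosomal, housekeeping and matrix genes were also found at the bright end. Of 68 cytosolic ribosomal protein genes, 66 lay above the median level, 6 were in the brightest 100, and their median SD of 0.0923 was among the smallest of the lists. Cytoskeleton and housekeeping genes had 35 of 35 above the median level and 10 in the brightest 100, with Actb at 13.88 ± 0.09, Vim, the intermediate filament of mesenchymal cells, at 13.80 ± 0.05 and the ferritin light chain Ftl1 at 13.95 ± 0.09. Gapdh, often used as a reference gene, was less steady at 13.48 ± 0.25. It lay between 13.22 and 13.36 in daughters 622, 627, 631 and 656, at 13.50 in daughter 658, and at 13.85 and 13.78 in daughters 662 and 664, the animals whose muscle genes are described next. The matrix protein Sparc lay at 13.90 ± 0.13, and the fibroblast proteins Dcn at 13.72 ± 0.09 and Dpt at 13.49 ± 0.10.

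Macrophage genes were well above the dim reference in every daughter. Of 24 measured members of the list, 22 lay above the median level, and 0 had an SD above 0.5, which is near the 2.42% of all genes. The list mean ran from 10.04 in daughter 658 to 10.64 in daughter 622. She had the highest value of 16 of the 24, against 19.7% of all genes. Fcer1g, an adaptor of Fc receptors, lay at 12.66 ± 0.24 and Csf1r, the receptor for macrophage growth factor, at 11.52 ± 0.25. T and NK cell genes were dim, with 5 of 26 above the median level. Daughter 664 had the highest value of 17 of the 26, against 7.47% of all genes. Nkg7, a protein of cytotoxic granules, stood at 9.55 in her against 7.65 to 9.14 in the others. Cd3e, part of the signalling complex on T cells, stood at 8.52 in daughter 664 against 7.21 to 8.09.

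Of the 26 adipocyte identity genes, 0 were among the 200 genes of largest SD, which are a small share of the 14506 measured. A count of 0 is therefore near the share over all genes. The 200 did hold Fasn, Acacb and Scd2 of the lipogenesis list, and Ucp1 of brown and beige adipocytes. Most of the 200 varied together. Joined by their profile over the 7 daughters, at a mean correlation of at least 0.7, 172 of the 200 fell into 6 groups of 5 or more genes, and 28 stayed outside. The groups were made from these same values, so their profiles are a description with no test. Genes named from them below that are neither among the 25 of largest SD nor in a named list were chosen after their values were seen.

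The largest group was skeletal muscle. It held 86 genes, 35 of them on a list of skeletal muscle fibre genes, and in all 86 the values of daughters 662 and 664 lay above those of the other 5; over all genes measured this was so for 692, or 4.77%. Myh1, the myosin heavy chain of fast fibres and the gene of largest SD, lay between 5.25 and 5.61 in 5 daughters and at 12.06 and 11.08 in daughters 662 and 664, a mean of 7.20 ± 3.01 (SD, n = 7). Mb, the oxygen store myoglobin, lay between 7.27 and 7.54 in the 5 and at 13.27 and 13.11 in the 2. Acta1, the skeletal alpha-actin, lay between 8.99 and 9.31 in the 5 and at 13.70 and 13.72, and Ckm, the muscle creatine kinase, between 8.32 and 8.53 and at 12.87 and 12.62. In the 5, Myh1 lay below the mean of the dim reference. Ttn, Pvalb, Atp2a1, Tnnt3 and Actn3, which encode titin, parvalbumin, the calcium pump of fast fibres, fast troponin T and the fast alpha-actinin, all showed the same split.

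The muscle list as a whole carried that split. Of 44 measured members, 38 had an SD above 0.5 and 33 above 1, against 2.42% and 0.600% of all genes. In 41 the values of daughters 662 and 664 lay above those of the other 5, against 4.77% of all genes. The mean of the list was 7.04 to 7.31 in the 5, and 10.64 and 10.46 in daughters 662 and 664. Cardiac muscle genes did not share the split. Their mean stayed between 7.23 and 7.41, and was 7.35 and 7.26 in daughters 662 and 664. Of the 11, 0 had an SD above 0.5, which is near the share over all genes. The spread rested on those 2 animals. Without daughters 662 and 664, a choice made after seeing the data, the median SD of the muscle list was 0.145 in place of 1.87, and 1 of its members was among the 200 of largest SD in place of 36.

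The DNA before the start sites was searched for letters known from muscle promoters. The 4 stretches below, from RefSeq on the GRCr8 build, show the 100 bases before the annotated start of 4 familiar muscle genes among the 25 of largest SD, picked after their values were seen, with TATAAA, the core of the TATA box, and CAGCTG, an E-box that myogenic factors such as MyoD can bind, in capitals wherever they occur.
Myh1, chr10:52384812-52384911, + strand: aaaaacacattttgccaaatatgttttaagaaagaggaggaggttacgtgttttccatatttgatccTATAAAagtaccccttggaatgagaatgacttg
Acta1, chr19:68784195-68784294, - strand: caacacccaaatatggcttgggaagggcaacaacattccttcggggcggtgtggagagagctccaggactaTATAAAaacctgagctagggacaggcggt
Mb, chr7:110647743-110647842, - strand: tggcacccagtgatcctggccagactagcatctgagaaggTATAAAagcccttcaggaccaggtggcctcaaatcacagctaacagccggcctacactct
Ckm, chr1:88189361-88189460, + strand: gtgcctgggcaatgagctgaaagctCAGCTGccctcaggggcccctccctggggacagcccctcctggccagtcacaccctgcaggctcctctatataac
TATAAA began 33 bases before the start of Myh1, 29 before that of Acta1 and 60 before that of Mb, and CAGCTG began 75 before that of Ckm.

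Counted over whole promoter windows, from 250 bases before to 50 after the start and on both strands, TATAAA was present for 22 of the 74 genes of the muscle group with a window, or 29.7%, against 12.0% of the 11968 measured genes with one. CAGCTG was present for 28 of 74, or 37.8%, against 16.6%. The consensus of MEF2, a factor of muscle differentiation, was present for 9 of 74, or 12.2%, against 0.526%. Most genes of the muscle group thus lacked each of these. Other groups held some of them in like shares, with few windows each: CAGCTG in 6 of 14 genes of the group led by Apod, or 42.9%, and in 4 of 10 of that led by Ucp1, and TATAAA in 5 of 14 of the group high in daughters 631 and 658, or 35.7%. The MEF2 consensus was in 0 windows of the other 5 groups, which have few windows, and this is near the 0.526% of all genes. The brightest 100 genes, of which 74 had a window, held TATAAA in 17.6%, CAGCTG in 13.5% and the MEF2 consensus in 1.35%. The adipocyte gene Adipoq had an E-box of the same letters farther from its start, and no TATAAA in the stretch shown.
Adipoq, chr11:91240170-91240269, - strand: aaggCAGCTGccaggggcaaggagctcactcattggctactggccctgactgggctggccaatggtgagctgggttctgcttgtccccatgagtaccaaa
The stretches of the same length before Pnpla2 and Pgr were also searched and are not shown. They held neither TATAAA nor CAGCTG. The matches given here describe the letters of the windows and were not tied to binding.

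Muscle fibres of a fast and a slow type use different copies of the same proteins, and the slow copies were part of the pattern in these daughters. Myh7, the slow myosin heavy chain, lay between 6.90 and 7.03 in 5 daughters and at 9.93 and 10.12 in daughters 662 and 664. Myl3, the slow light chain, lay between 6.89 and 7.13 and at 10.69 and 11.04, and Myh2, the heavy chain of fast oxidative fibres, between 5.99 and 6.49 and at 9.72 and 10.13. Tnnt1, Tnni1, Tnnc1 and Myoz2, which encode slow troponins and a slow-fibre protein of the Z-disc, were likewise highest in those 2 animals. In the 6 arrays of daughters of high-fat fathers, the muscle group was high in daughter 629, with a mean of 10.36, and intermediate in daughter 619 at 8.02. Over those 6 arrays Myh1 had an SD of 2.38 and Actn3 of 2.16, and Myh7, Myl3 and Myh2 had SDs of 0.15, 0.08 and 0.10. The 7 slow and oxidative genes named here were the only members of the muscle group whose SD in those 6 arrays was under 0.25.

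A group of 26 genes was high in daughter 658 alone. Its mean was 9.996 in her and 7.55 to 7.79 in the other 6, and in all 26 genes she lay above the rest. Nmur2, a receptor for neuromedin peptides, lay at 11.15 in daughter 658 and between 5.31 and 5.64 in the other 6, below the dim reference. Pnoc, the precursor of the peptide nociceptin, lay at 10.86 against 7.06 to 7.19, and Pgr, the progesterone receptor, at 9.75 against 5.88 to 6.36. The group also held contractile genes of smooth muscle, which were measured in every daughter and were highest in her. Actg2, the gamma-actin of visceral smooth muscle, lay at 11.54 against 7.67 to 9.18, and Cnn1, calponin, at 11.73 against 7.89 to 9.58. Tagln, transgelin, lay at 12.65 against 10.48 to 11.29, and Myh11, the smooth muscle myosin, at 11.92 against 9.79 to 10.63.

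The smooth muscle and pericyte list had 16 of 17 members above the median level, and its mean was 10.72 in daughter 658 and 9.84 to 10.20 in the others. She was highest in 9 of the 17, against 22.8% of all genes. Acta2, the smooth muscle alpha-actin that pericytes also make, lay at 14.00 in her against 13.09 to 13.36. Rgs5, a marker of pericytes, was lowest in her at 11.77 against 12.08 to 12.31, and Mcam, an adhesion molecule of pericytes and endothelium, lay at 12.34 within 12.27 to 12.49. The ovary and uterus list had 2 of 13 members above the median level. Its mean was 7.60 in her and 7.17 to 7.33 in the others. She was highest in 6 of the 13, against 22.8% of all genes. That list includes Pgr, a member of the group, while Star and Esr1, also on it, were lowest in her. The mean of the dim reference was highest in her too, at 6.92. Without daughter 658 the median SD of the 26 genes was 0.224 in place of 0.790, and 3 of 26 kept an SD above 0.5. The SD without her was 0.14 in place of 2.14 for Nmur2, 0.17 in place of 1.38 for Pgr and 0.34 in place of 0.70 for Tagln. In the 6 arrays not used for the order, the group mean lay between 7.41 and 7.73. The part of these genes in the other values of daughter 658 was not tested.

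A group of 20 genes was led by Apod, Pmp2 and Drp2. None of the 20 was on the list of nerve and Schwann cell markers and 1 was on any list, so the roles given here for its members are background. Daughter 656 lay above the other 6 in all 20, and daughter 658 was lowest in 15. The share of all genes lowest in daughter 658 was not counted, and her array departed downward for 871 of all genes, or 6.00%. The group mean was 10.15 in daughter 656, 9.28 and 9.12 in daughters 622 and 627, 8.61 in daughter 662, and 7.46 to 7.94 in daughters 658, 631 and 664. Pmp2, a lipid-binding protein of peripheral myelin, ran from 6.77 in daughter 658 through a median of 8.69 to 11.15 in daughter 656. Drp2, which anchors the Schwann cell membrane, ran from 6.72 to 10.60, Mal, a proteolipid of myelin, from 8.08 to 10.91, and Fa2h, which makes the hydroxylated fatty acids of myelin lipids, from 6.04 to 9.79. Apod, a lipid carrier of nerve sheaths and fibroblasts, ran from 7.45 to 12.38, also with its ends in daughters 658 and 656. The values formed a series and not a split into high and low animals.

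Of the 18 measured genes on the list of nerve and Schwann cell markers, 1 had an SD above 0.5, and 8 were highest in daughter 656, against 15.1% of all genes. The median SD of that list was 0.173, against 0.156 over all genes. Prx, periaxin, the scaffold of the myelin sheath, ran from 7.38 to 9.21, and Pmp22 from 12.60 in daughter 658 to 13.78 in daughter 656, both ordered as the group was at their ends. Mbp, the myelin basic protein, ran from 9.13 in daughter 658 to 9.99 in daughter 627, and Sox10, a factor of Schwann cells, stayed between 8.16 and 8.53. Scd2, a desaturase that nerve shares with the lipogenesis list, was in the group as well, with 11.18 in daughter 656 and 8.68 in daughter 631. All 20 genes had an SD above 0.5 in the 6 arrays not used, where daughters 629 and 663 had the highest group means, 10.11 and 9.74.

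A group of 13 genes led by Ucp1, Des and Pdlim3 was high in daughters 658 and 662. It held 3 genes of the brown and beige fat list, and 7 of the 13 were on no list. Its mean was 9.31 and 9.71 in them, 8.59 in daughter 664, and 7.41 to 7.96 in the other 4; in 11 of 13 genes daughters 658 and 662 lay above the other 5. Ucp1, the uncoupling protein of brown and beige adipocytes, lay at 9.28 in daughter 658 and 9.76 in daughter 662, at 7.40 in daughter 622, and between 6.11 and 6.54 in the other 4, which is below the dim reference. Cpt1b, the muscle and brown fat form of the enzyme that admits fatty acids to mitochondria, ran from 7.86 to 9.55 and 10.57 in daughters 658 and 662, and Ppargc1a, a coactivator of mitochondrial genes, from 5.95 to 7.34 and 7.72. Des, the muscle intermediate filament desmin, was in this group because it was high in 3 animals, at 11.83, 11.82 and 11.69 in daughters 658, 662 and 664 and 9.03 to 9.40 in the other 4. The stretch before the start of Ucp1 is shown with TATAAA in capitals, beginning 30 bases before the start.
Ucp1, chr19:41721422-41721521, - strand: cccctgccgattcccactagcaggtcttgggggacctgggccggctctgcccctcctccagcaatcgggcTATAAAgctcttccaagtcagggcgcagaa

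Not all genes of brown fat followed Ucp1. Of 22 measured members of the brown and beige fat list, 7 had an SD above 0.5, and 14 were highest in daughter 662, against 13.01% of all genes. Cox8b and Fabp3, a cytochrome oxidase subunit and a fatty acid binding protein that muscle and brown fat share, were in the muscle group and were high in daughter 664 as well, at 8.89 and 10.22, where Ucp1 was lowest at 6.11. Elovl3, an elongase induced with Ucp1, stayed between 6.04 and 6.82, and Dio2, the deiodinase of brown fat, between 5.39 and 5.78, at or below the dim reference. Daughter 662 also had the highest value of 20 of the 22 fatty acid oxidation genes, 17 of the 18 citric acid cycle genes and 38 of the 60 oxidative phosphorylation genes, against the same 13.01%. The mean of the citric acid cycle list was 11.11 in her and 10.67 to 10.83 in the others. Skeletal muscle genes were high in the same animal, and their part in these levels was not tested.

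A group of 9 genes had daughter 664 highest and daughter 631 lowest in all 9, and 4 of the 9 were on the list of mesothelium markers. The share of all genes lowest in daughter 631 was not counted. The group mean ran from 7.44 in daughter 631 through 8.49 to 9.29 in 5 daughters to 10.02 in daughter 664. Msln, mesothelin, a surface protein of mesothelium, ran from 8.18 through a median of 9.39 to 10.45, Upk1b, uroplakin 1b, from 7.07 to 9.21, and Krt19, a keratin of simple epithelia, from 7.35 to 9.84. Gpm6a, a membrane glycoprotein, ran from 7.22 to 10.37. Of 17 measured mesothelium markers, 6 had an SD above 0.5 and 10 were highest in daughter 664, against 7.47% of all genes. The group also held Nr4a1, an immediate early gene, at 10.13 in daughter 664 and 8.28 to 9.44 in the others. Daughter 664 had the highest value of 12 of the 21 immediate early genes, against that same share, among them Egr1 at 12.03 against 11.01 to 11.78 and Fos at 9.40 against 7.88 to 8.93. Such genes respond within minutes to a stimulus.

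The last group, of 18 genes, was high in daughters 631 and 658, whose arrays had the smallest spread over genes. Its mean was 8.09 and 8.55 in them and 6.44 to 7.39 in the others. Without daughter 658 its median SD was 0.597 in place of 0.761, and 13 of 18 kept an SD above 0.5. It held 9 genes of the olfactory receptor families by symbol, several genes of multicopy families such as Spetex2g and LOC108353138, the amylase Amy2a3, and Oxtr, the oxytocin receptor. Spetex2g lay at 9.81 and 9.78 in daughters 631 and 658 and between 6.72 and 7.99 in the others. Probes to multicopy families can share sequence, so which copy was measured is uncertain. Oxtr differed from the rest of the group in being well above the dim reference in every daughter, between 9.44 and 11.16, and it was also high in daughter 664, at 11.07.

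Among the 28 variable genes outside the groups, Ifit1, an interferon-induced antiviral protein, split the animals in another way. It lay at 9.78, 9.37, 9.05 and 9.12 in daughters 622, 627, 631 and 656, and at 6.51, 6.30 and 5.99 in daughters 658, 662 and 664, where it was below the dim reference. Ifit3 and Irf7, which interferon also induces, did not divide the animals in that way. Ifit3 lay between 7.29 and 8.11 with its highest value in daughter 664, and Irf7 between 9.25 and 10.44. Mx1 was in the muscle group, at 8.71 and 9.38 in daughters 662 and 664 against 7.37 to 8.20. Of 23 measured interferon-stimulated genes, 3 had an SD above 0.5 and 14 were highest in daughter 664, against 7.47% of all genes. Nr1d1, the clock repressor Rev-erb alpha, ran from 9.37 in daughter 658 to 11.79 in daughter 622, and Dbp, an output gene of the clock, from 10.05 to 11.42, also highest in daughter 622. Of 15 clock genes measured, 1 had an SD above 0.5, and the median SD of the list was 0.343.

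**Figure D3:**
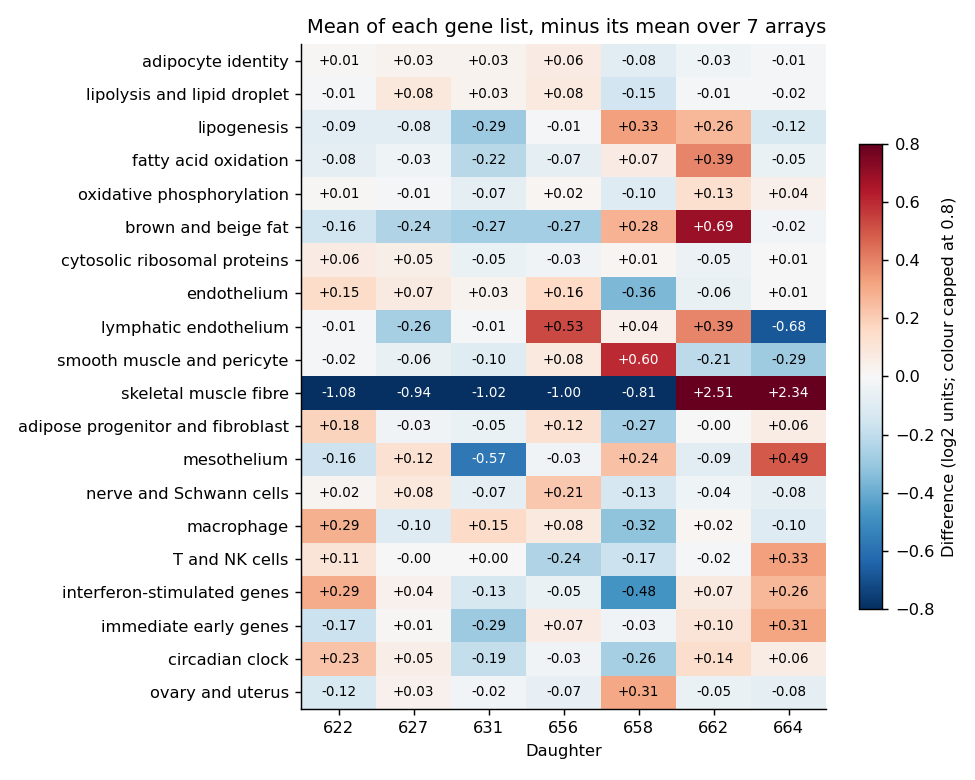
Mean of each of 20 gene lists in every daughter, minus the mean of that list over the 7 arrays (log2 units; red higher, blue lower, colour capped at 0.8). Skeletal muscle reads 2.51 and 2.34 in daughters 662 and 664, smooth muscle reads 0.60 in daughter 658, and adipocyte identity stays between -0.08 and 0.06.

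Ccl21, a chemokine of lymphatic vessels, ran from 6.84 in daughter 664 to 11.03 in daughter 662. Reln, reelin, and Prox1, the factor that sets lymphatic identity, had their highest values, 8.86 and 6.94, in daughter 656 and their second highest, 8.24 and 6.58, in daughter 662. Prox1 was near or below the dim reference in every daughter, so its order between them is uncertain. The lymphatic endothelium list had 2 of 6 members with an SD above 0.5, and its mean ran from 8.50 in daughter 664 to 9.71 in daughter 656. Of 19 endothelial genes, 0 had an SD above 0.5, which is near the 2.42% of all genes. Their median SD was 0.221, against 0.240 for the lymphatic list and 0.156 over all genes. The mean of the endothelial list had an SD of 0.18, and that of the lymphatic list 0.40. The lymphatic mean rests on only 6 genes, of which Ccl21 had an SD of 1.41, so these SDs do not compare the lists. The endothelial mean was 9.89 in daughter 658 against 10.19 to 10.41 in the others. Hbb, the beta-globin that marks blood, lay lowest in daughter 622 at 11.45 and highest in daughter 662 at 12.72, and Alas2, the haem enzyme of red cell precursors, lay lowest in daughter 622 at 8.94 and highest in daughter 662 at 10.30.

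Within the 1000 brightest genes, 11 had an SD above 0.5. Without daughter 658, a count added after seeing the data, 6 of the 11 kept one, and 7 of the 1000 genes in all lay above it. Leaving out any other daughter gave 12 to 16 of the 1000. Alb, serum albumin, which is made mainly in the liver, led them at 12.06 ± 0.75 (SD, n = 7), with a lowest value of 10.73 in daughter 631, a median of 12.07 and a highest of 12.94 in daughter 622. Ccr2, the chemokine receptor of monocytes, was 10.11 in daughter 658 and 11.74 to 12.36 in the others, and its SD was 0.71 with her and 0.23 without. Serpina3n, an acute phase inhibitor, lay at 11.74 and 11.78 in daughters 664 and 622 and at 12.28 to 13.16 in the other 5. Sfrp4 and Sfrp2, secreted inhibitors of Wnt signals, were lowest in daughter 658, at 10.26 and 8.66, and highest in daughter 622, at 11.94 and 10.85. The SD of Sfrp4 was 0.57 with her and 0.36 without. Pdk4, which spares glucose by shutting pyruvate dehydrogenase, ran from 11.32 in daughter 631 to 12.86 in daughter 662. RT1-Ba, a class II antigen presentation gene, stood at 12.36 in daughter 622 and 10.79 to 11.59 in the others, and its partner RT1-Bb at 10.60 against 8.97 to 9.54.

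A departure by 1 array was common in the whole data set. By Dixon's ratio, the gap from the extreme array to its nearest neighbour as a share of the range, 1730 genes, or 11.9%, passed the 95% critical value for 7 values. Daughter 658 was the departing animal in 1282 of them, 411 upward and 871 downward. Among the 200 genes of largest SD, 25 passed, close to the share over all genes, and 22 of these were high in daughter 658. Among the brightest 100, 6 passed. Among the 200, the highest array was that of daughter 662 for 85 genes, 658 for 49, 664 for 29 and 656 for 24, and the other 3 daughters together had the remaining few. As shares these were 42.5%, 24.5%, 14.5% and 12%, against 13.01%, 22.8%, 7.47% and 15.1% of all genes.

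The order of levels and much of the order of spread recurred in the 6 arrays that had not been used. Of the brightest 100 genes, 94 were among the brightest 100 there as well. Of the 200 genes of largest SD, 149 had an SD above 0.5 there, against 2.21% of all genes. The median SD of the 200 was 0.856 there, against 0.127 over all genes. Of the 149, 77 were of the muscle group, which was high there in daughter 629 and intermediate in daughter 619. The groups led by Apod and Ucp1 also had their highest mean there in daughter 629. Genes of a group varied together, so the 149 were not separate cases. Of the 200, 30 had an SD under 0.25 there; 18 of these were members of the group high in daughter 658, such as Nmur2 with an SD of 0.09 and Pgr with 0.13, and 7 were the muscle genes of slow and oxidative fibres named above. The control arrays had shown both sets to be variable through 1 or 2 animals. Each gene was read from its brightest probe, and 12 of the 200 had further probes, 21 in all. Of the 21, 19 also had an SD above 0.5. Most of the 21 belonged to the group that held the olfactory receptor and multicopy genes. Probes to such families can share sequence, so they may not be separate measures. The muscle group had a few of the 21. The groups led by Apod and Ucp1, that high in daughter 658 and that with mesothelium markers had none, so their spread was not checked in this way.

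**Figure D4:**
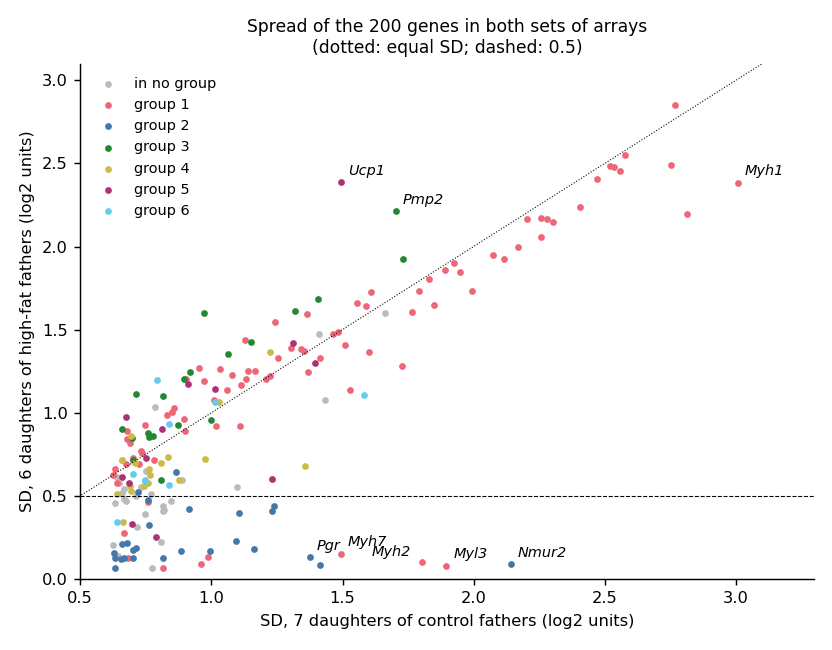
SD of the 200 most variable genes over the 7 daughters of control fathers (horizontal) and over the 6 daughters of high-fat fathers (vertical), in log2 units, coloured by group; the dotted line marks equal SD and the dashed line 0.5. Points of the muscle group lie near the dotted line apart from the 7 genes of slow and oxidative fibres, of which Myh2, Myl3 and Myh7 are labelled, and Nmur2 lies at 2.14 and 0.09.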

How the data were processed

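Fat RNA of 13 rats was hybridised to Affymetrix arrays, 1 array per animal. The authors deposited log2 values of 29214 probes, made with RMA in Partek per the submitters' processing notes; background correction and scaling were not undone, and depth has no meaning for arrays, where the number of animals limits precision. The platform table gave 1 symbol to 15310 probes, several to 323, and did not list 13581, which stay unnamed; 15279 matched a RefSeq gene (GRCr8). The brightest probe over the 7 control arrays stood for each of 14506 genes. Means, SDs, Dixon's ratio and average-linkage groups (correlation distance 0.3, at least 5 genes) were computed in Python 3.11.15 with numpy 2.4.6, pandas 2.3.3 and scipy 1.17.1, and tested on simulated data. Orders by level and SD are descriptions, with no test between diets. Genes named were the 25 of highest mean, the 25 of largest SD, the 15 of largest SD among the 1000 brightest, and, in lists that are described, at most 4 by level and 4 by SD. Sry, Ucp1, Slc2a4, Lep, Pparg and Adipoq were added in any case; others were named after their values were seen. Members and the 46 lists were chosen with earlier results of these data known. Nothing in the labels says that animals were of separate litters. Promoter windows came from RefSeq. Alternatives covered normalization, probe choice, level filter, MAD, medians, number range of the animals, left-out arrays, linkage and list size.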

Additional observations from a re-analysis of the deposited data

Results flagged for a closer look

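In the 7 control daughters, 45 list means and 70 named genes were looked at for an animal whose gap to the nearest other passed Dixon's 95% critical value; chance gives this in about 1 of 20 groups, and 14 passed, 11 of them through daughter 658. Over all genes 11.9% passed, and many of the named genes were chosen for a large SD. She lay high for the means of smooth muscle and pericyte genes (10.72) and of ovary and uterus genes (7.60), a list that includes Pgr. She lay low for those of endothelium (9.89), fatty acid uptake and carriers (10.85), lipolysis and lipid droplet (10.77), and cytoskeleton and housekeeping (11.50). Her array had the smallest spread over genes. Among bright lists, the adipocyte identity, macrophage and complement means were also lowest in her, while that of lipogenesis was highest. The means of the dim reference and of the pancreas and mammary epithelium lists were highest in her. Dim lists did not all go that way: those of neutrophils and mast cells (7.55) and of nerve and Schwann cells (7.82) were lowest in her. Among single genes she lay high for Nmur2 (11.15) and Tagln (12.65), and low for Igf1, a growth factor that fat makes (13.15), Ccr2 (10.11) and Ldaf1, a lipid droplet assembly factor (10.32), whose SD was 0.52 with her and 0.26 without. Daughter 662 lay high for the citric acid cycle (11.11) and daughter 664 for cell division genes (7.34). Daughter 631 lay low for Fmo2, a flavin monooxygenase (9.97). The causes were not tested.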

How the results depend on the processing

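No paired analysis was possible because the daughters of control fathers share no animal number with the other group and no groups were compared. In the order by level, 91 to 100 of the brightest 100 genes kept their place under every alternative run. The order by SD rested on few animals. On the median absolute deviation, which ignores 1 or 2 departing arrays, 157 genes lay above 0.5 and 21 above 1, 75 of the 200 genes kept their place in the top 200, which held 1 muscle gene, and the medians were 0.224 for muscle, 0.170 for smooth muscle, and 0.279, 0.219, 0.492 and 0.469 for groups 1, 2, 4 and 5. Genes above the median level alone gave 151 above 0.5, 46 above 1, 96 of the 200, 18 muscle genes and a nerve median of 0.279, since fewer genes entered; all probes gave 1147 and 237. Leaving out each daughter in turn moved the smooth muscle median to 0.162 to 0.301 and that of group 2 to 0.224 to 0.860, the lowest without daughter 658 in both. Both remaining alternatives on animals were added after seeing the data. Without daughters 662 and 664, 33 genes lay above 1, 107 of the 200 kept their place, the top 200 held 1 muscle gene, and the medians were 0.145 for muscle and 0.156 for group 1. Without daughters 658, 662 and 664, 143 lay above 0.5 and 15 above 1, 68 of the 200 kept their place, and the top 200 held 0 muscle genes. The medians were then 0.131 for muscle, 0.120 for smooth muscle, 0.170 for brown and beige fat, and 0.128, 0.165 and 0.347 for groups 1, 2 and 5. At the 99% critical value 555 genes departed, 416 through daughter 658. The top 100 by SD gave 3 groups of 87 genes, and 85% had an SD above 0.5 in the other 6 arrays in place of 74.5%. Taking out the number range of the animals (622 to 631, 656 to 664) kept 179 of the 200. RMA compresses low signals, and RNA quality was not measured here.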

Other observations

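Among the 45 lists with a measured gene, several tissues were near the dim reference throughout. Mammary epithelium had 0 of 14 genes above the median level of all genes, and its mean lay between 6.38 and 6.71. Pancreas had 0 of 14, with a mean of 7.02 to 7.38, and cardiac muscle 1 of 11. Homeobox genes, which record where along the body a tissue arose, had 9 of 18 above the median level, with a mean of 7.82 to 8.10.

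Star, which delivers cholesterol for steroid synthesis, and Esr1, the estrogen receptor alpha, were bright in every daughter, at 11.03 ± 0.22 and 11.72 ± 0.30 (SD, n = 7). Both were lowest in daughter 658, at 10.65 and 11.19, where Pgr was highest.

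With daughters 658, 662 and 664 left out, a choice made after seeing the data, genes of the group led by Apod and of that led by Fam111a were among those at the head of the order by spread, with LOC108353138 and Spetex2g among them. Pmp2 came at the top with an SD of 1.72 over the 4 remaining arrays, followed by Fam111a with 1.42, and Apod, Fa2h and Drp2 had 1.32, 1.34 and 1.29.

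Probes without a gene name took 110 of the 200 places of largest SD and 40 of the 100 of highest level when all probes were ordered, so the gene orders given here describe only the named share of the array.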
